A study of Mus musculus with 6 samples.

Results

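Follistatin-like 1 (Fstl1), the gene deleted in this mouse model, was followed together with its relatives of the follistatin and SPARC families and with Dip2a, which encodes a proposed cell-surface receptor for the FSTL1 protein. The members were the rows of the deposited table whose symbol is Fstl1, Fst, Fstl3, Sparc, Sparcl1, Smoc1, Smoc2, Spock2 or Dip2a. All 9 were found among the 19241 genes of the table. RNA of the whole interscapular brown adipose depot of newborn mice was sequenced in 6 libraries. The 3 WT libraries are of floxed Fstl1 mice and the 3 KO libraries of Myf5-Fstl1 KO mice, which lack the gene in the Myf5 lineage, the one that forms skeletal muscle and much of the interscapular brown fat. The labels name neither the Cre allele, the strain nor the sex, and whether WT mice carried a Cre is not given. The deletion is set by lineage and the whole depot was sampled, so by design cells of other lineages keep an intact gene in the KO. How complete and how specific the deletion was, and which cells gave the Fstl1 reads of the KO libraries, was not tested.

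FSTL1 is a secreted glycoprotein that carries a follistatin-like domain and an extracellular calcium-binding domain of the kind found in SPARC. Follistatin and FSTL3 bind activins and related ligands and keep them from their receptors, whereas SPARC, SPARCL1, the SMOCs and SPOCK2 are matricellular or proteoglycan components of the extracellular matrix, and SPARC binds collagen. FSTL1 has been described as a BMP antagonist in other tissues, and SMOC1 as a modulator of BMP signalling.

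Levels are given in FPKM (sequenced fragments divided by transcript length and by the total mapped in that library), which may be set side by side between genes because they are per length. Sums of FPKM were 486449 to 556968 per library. The spacing of low values put the depth at 13900000 to 15100000 reads. Xist was at 44.82 to 85.51 FPKM in WT and 0.05 to 0.92 FPKM in KO, and the Y-linked gene Ddx3y was at 0 to 0.23 FPKM in WT and 59.54 to 60.82 FPKM in KO. Sex therefore coincided with genotype in all 6 libraries, and for every difference below the effects of genotype and sex cannot be told apart. Nothing in the labels says whether libraries of a group came from separate litters or animals, so p-values measure only the spread between these libraries. In whole tissue, fewer cells of a type and less RNA per cell cannot be told apart either.

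Fstl1 lies on chromosome 16 of mouse build GRCm38 (mm10), at 37776873 to 37836514 on the plus strand, and the table lists 1 transcript for it. Its promoter window, from 250 bases before to 50 bases after the RefSeq start, is shown because it is the start of the targeted gene's transcript, and that of Sparc because Sparc was the most abundant member and its groups overlapped. The window of Dip2a is shown as that of the proposed receptor. RefSeq promoter windows (GRCm38.p6) were matched for 5 of the 9 members. Capitals mark 3 motifs on either strand: the SMAD box CAGAC, the TATA box TATAAA and the GC box GGGCGG. No matches overlap one another in the windows shown.
Fstl1, chr16:37776805-37777104, plus strand: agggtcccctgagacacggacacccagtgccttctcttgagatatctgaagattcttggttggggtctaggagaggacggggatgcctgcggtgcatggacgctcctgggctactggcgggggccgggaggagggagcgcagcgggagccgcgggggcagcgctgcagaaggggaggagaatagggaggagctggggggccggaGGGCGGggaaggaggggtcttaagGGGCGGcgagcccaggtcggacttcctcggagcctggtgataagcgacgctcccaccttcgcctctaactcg
Sparc, chr11:55420031-55420330, minus strand: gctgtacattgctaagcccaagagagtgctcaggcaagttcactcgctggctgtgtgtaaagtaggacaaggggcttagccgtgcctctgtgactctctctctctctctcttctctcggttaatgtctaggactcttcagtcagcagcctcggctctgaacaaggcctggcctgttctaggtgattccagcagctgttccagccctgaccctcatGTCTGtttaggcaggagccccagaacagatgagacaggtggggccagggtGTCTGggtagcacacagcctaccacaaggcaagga
Dip2a, chr10:76345242-76345541, minus strand: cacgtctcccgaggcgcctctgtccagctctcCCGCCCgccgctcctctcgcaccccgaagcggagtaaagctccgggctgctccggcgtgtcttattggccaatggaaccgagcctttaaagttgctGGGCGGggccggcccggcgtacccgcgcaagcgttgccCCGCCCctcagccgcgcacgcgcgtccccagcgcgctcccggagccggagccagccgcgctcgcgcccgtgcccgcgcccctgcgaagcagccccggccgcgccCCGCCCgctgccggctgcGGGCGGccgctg

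The windows differ in base composition: G and C made up 66.7% of the Fstl1 window, 76.7% of that of Dip2a and 55.3% of that of Sparc, beside a median of 52.7% over the 32851 windows of the RefSeq table. Fstl1 held 2 GC boxes, Dip2a 5 and Sparc 0, and 35.7% of all windows held at least 1. Sparc held 2 SMAD boxes and the windows of Fstl1 and Dip2a 0, where 49.6% of all windows held at least 1. None of the 3 windows held the TATA box, which 13.6% of all windows did. These matches describe the letters of the windows only.

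Among the 9 members the levels in WT spanned a wide range. Sparc, the collagen-binding matricellular protein gene, was highest with a mean of 795.5 ± 81.4 FPKM (SD, n = 3), followed by its close relative Sparcl1 with 249.0 ± 8.93 FPKM and by Fstl1 with 80.0 ± 43.4 FPKM. Smoc1, Dip2a and Smoc2 followed with means of 20.9, 10.4 and 6.67 FPKM, then Fst with 3.15 FPKM, Spock2 with 3.12 FPKM and Fstl3 with 0.59 FPKM. Every neighbouring pair in this order was apart in all 3 WT libraries except Fst and Spock2, whose values overlapped. In KO, Fstl1 fell to the fourth place at 9.93 ± 2.76 FPKM, where its values overlapped with those of Smoc1. Dip2a and Smoc2, and Smoc2 and Fst, also overlapped with each other in KO, while the other neighbours stayed apart.

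**Figure D1:**
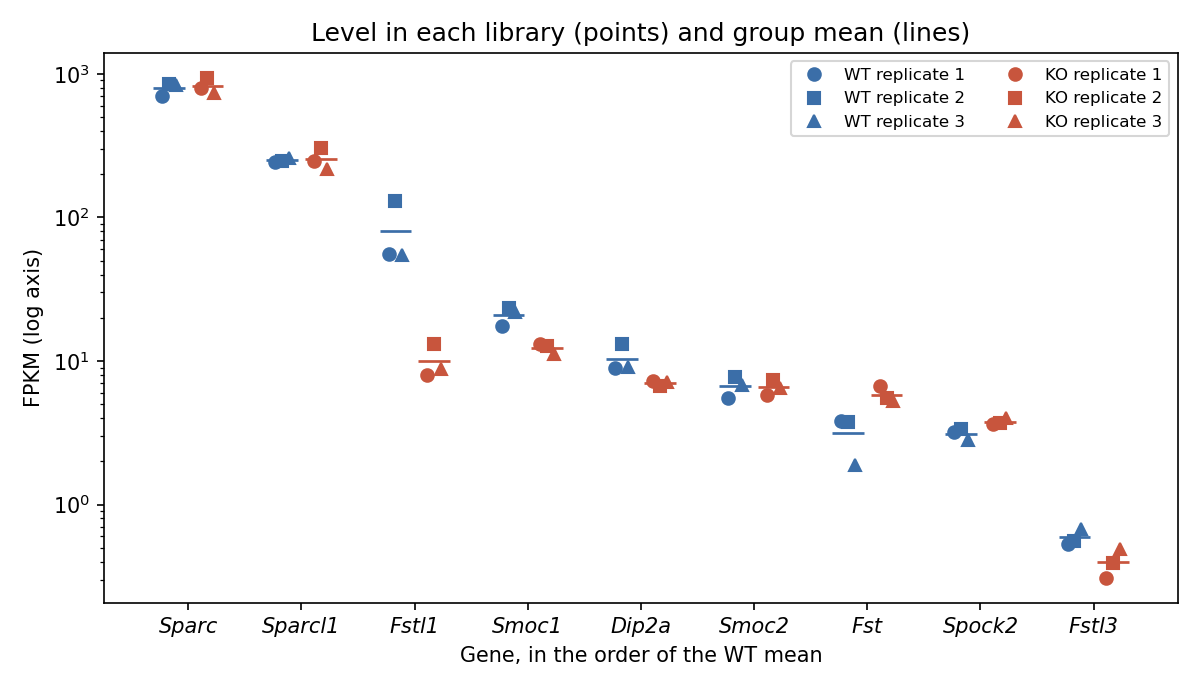
FPKM of the 9 genes (log axis) in each of the 3 WT (blue) and 3 KO (red) libraries, with lines at the group means and genes ordered by the WT mean. Fstl1 is the gene with the wide gap between groups, Smoc1, Dip2a and Fstl3 lie lower and Fst and Spock2 higher in all KO libraries, and Sparc, Sparcl1 and Smoc2 overlap.

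Of the members, only Fstl1 passed the test: 8 of the 9 entered the comparison of KO with WT (limma on log2(FPKM + 1), Benjamini-Hochberg adjustment over 13331 genes, threshold 0.05), and 1 was called, beside 2.21% of all tested genes (1.01% lower and 1.21% higher in KO). The groups did not overlap in 5 of the 8, beside 24.9% of all tested genes. In 3 of these KO was lower (Fstl1, Smoc1 and Dip2a; 11.4% of all tested genes) and in 2 higher (Fst and Spock2; 13.6% of all tested genes). Both the call and the count of 5 include Fstl1, the deleted gene, whose fall was built into the design. The median log2 fold change of the 8 was 0.004, beside 0.01 over all tested genes. An exact permutation test of 3 libraries against 3 cannot give a p below 0.1, and each of these 5 genes reached that value.

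The WT libraries (replicates 1, 2 and 3) read the targeted gene at 55.52, 130.04 and 54.37 FPKM, and the KO libraries in the same order at 7.93, 13.08 and 8.77 FPKM. WT replicate 2 was the highest library, the other WT libraries lay close together, and no KO library came near them. The residual level in KO rests on an estimated 412 to 729 reads per library. Fstl1 fell by 2.79 on the log2 scale (SE 0.33, limma adjusted p 0.00979), the fall ranked 2 of 13331 genes behind Xist, and KO retained 12.4% of the WT mean. Without WT replicate 2 it fell by 2.38 (limma, adjusted p 0.0138).

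Set against Sparc in the same library, Fstl1 reached 7.91%, 15.3% and 6.50% of the Sparc level in WT (replicates 1, 2 and 3), whereas the KO libraries gave 0.989%, 1.40% and 1.20%. Fstl1 made up 4.56% to 10.2% of the summed FPKM of the 9 genes in WT and 0.725% to 1.01% in KO. Sparc and Sparcl1 together made up 85.7% to 91.8% of that sum in WT and 95.6% to 96.2% in KO.

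The nearest tested genes on either side of Fstl1 on chromosome 16 did not pass the test. On the side before it, Ndufb4, a respiratory complex I subunit gene 122.4 kb away, was at 533.3 to 789.3 FPKM in WT and 593.5 to 668.5 FPKM in KO. After it, Lrrc58, 31.9 kb away, was at 30.65 to 61.2 FPKM in WT and 52.45 to 67.25 FPKM in KO (limma, log2 fold change 0.59, adjusted p 0.239). These neighbours were chosen by position after the Fstl1 value was known.

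Of the follistatin relatives, Fst, which encodes the activin-binding protein follistatin, was read at 3.79, 3.77 and 1.89 FPKM in WT and 6.70, 5.52 and 5.29 FPKM in KO. Each KO library lay above each WT library, and WT replicate 3 was the lowest. The KO mean was 1.85 times the WT mean, and the log2 fold change of 0.75 (SE 0.22, 95% interval 0.26 to 1.25) did not pass (limma, adjusted p 0.109). The table lists 3 transcripts for Fst of 1113 to 2833 nt, so its FPKM depends on which of them was counted.

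Fstl3, the other activin-binding relative, was at 0.53, 0.56 and 0.68 FPKM in WT and 0.31, 0.39 and 0.49 FPKM in KO. All KO values lay below all WT values, with a KO mean 67.2% of the WT mean. These values rest on an estimated 15 to 20 reads per library in WT and 8 to 14 in KO. Its mean was under the filter of 0.5 FPKM, so it was not tested with the other members. Without the filter its log2 fold change was −0.19 (limma, adjusted p 0.318). Prss57, which overlaps Fstl3 on the opposite strand, was at 0 to 0.08 FPKM.

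Smoc1, a SPARC-related secreted calcium-binding protein, came closest to the threshold among the relatives. The WT libraries gave 17.43, 23.57 and 21.81 FPKM and the KO libraries 13.15, 12.69 and 11.21 FPKM, a KO mean 59.0% of that of WT. The KO libraries lay close together and below every WT library. The log2 fold change was −0.71 (SE 0.16, 95% interval −1.06 to −0.35) and did not pass (limma, adjusted p 0.0565). Leaving out WT replicate 1 brought it past the threshold (−0.83, limma, adjusted p 0.0384), as did 3 other settings. Leaving out any other single library left it short of the threshold, with adjusted p (limma) from 0.125 to 0.226.

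**Figure D2:**
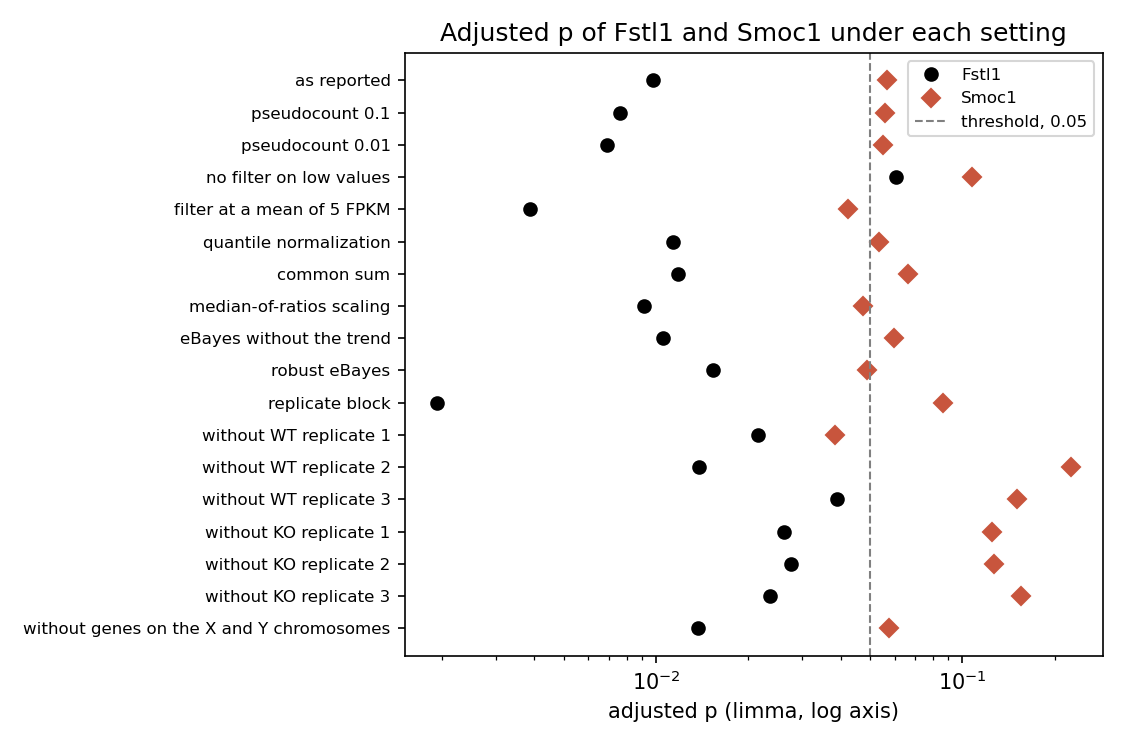
Adjusted p (limma, log axis) of Fstl1 (black circles) and Smoc1 (red diamonds) for the reported fit and each alternative, with the threshold of 0.05 dashed. Fstl1 lies below it in all but the fit without a filter on low values, whereas Smoc1 ranges from 0.0384 to 0.226 and lies below it in 4 of 17 alternatives.

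Its paralogue Smoc2 did not separate the groups. Its values were 5.55, 7.71 and 6.75 FPKM in WT and 5.77, 7.34 and 6.52 FPKM in KO, so the groups overlapped throughout. The 95% interval of the log2 fold change, −0.39 to 0.35, sets how large a difference could have been missed (limma, adjusted p 0.967).

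Sparc was at 701.84, 848.04 and 836.76 FPKM in WT and 801.97, 935.16 and 729.78 FPKM in KO, and the groups overlapped. Its log2 fold change was 0.05 with a 95% interval of −0.30 to 0.39 (limma, adjusted p 0.909). Sparcl1, which encodes the related matricellular protein hevin, was at 242.25, 245.61 and 259.12 FPKM in WT and 246.9, 306.62 and 215.59 FPKM in KO. The KO libraries lay on both sides of the WT libraries, with KO replicate 2 highest and KO replicate 3 lowest (log2 fold change 0.03, 95% interval −0.33 to 0.38, limma adjusted p 0.948).

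Spock2, a testican that carries a SPARC-like domain and glycosaminoglycan chains, was at 3.18, 3.36 and 2.81 FPKM in WT and 3.65, 3.68 and 4.03 FPKM in KO. The groups did not overlap, but the difference was small, with a log2 fold change of 0.22 (95% interval −0.10 to 0.54), and did not pass (limma, adjusted p 0.431).

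Dip2a was at 8.92, 13.14 and 9.13 FPKM in WT and 7.24, 6.68 and 7.13 FPKM in KO. The KO libraries were close together and all below WT, and WT replicate 2 was again the highest library, as for Fstl1. The KO mean was 67.5% of the WT mean, and the log2 fold change of −0.49 (SE 0.17, 95% interval −0.88 to −0.10) did not pass (limma, adjusted p 0.174). Without WT replicate 2 it was −0.32 (limma, adjusted p 0.472). The GENCODE vM21 models of Dip2a and of S100b, on the opposite strand of chromosome 10, share 1731 bases, whereas the RefSeq span of Dip2a starts at 76263034 (GRCm38.p6), past the RefSeq end of S100b at 76261319. The table lists RefSeq transcripts. S100b was at 11.74 to 19.75 FPKM, and strand handling is not given in the sources used here. Its relatives Dip2b and Dip2c were at 3.46 to 4.44 and 1.90 to 2.75 FPKM over the 6 libraries, and both overlapped between groups.

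**Figure D3:**
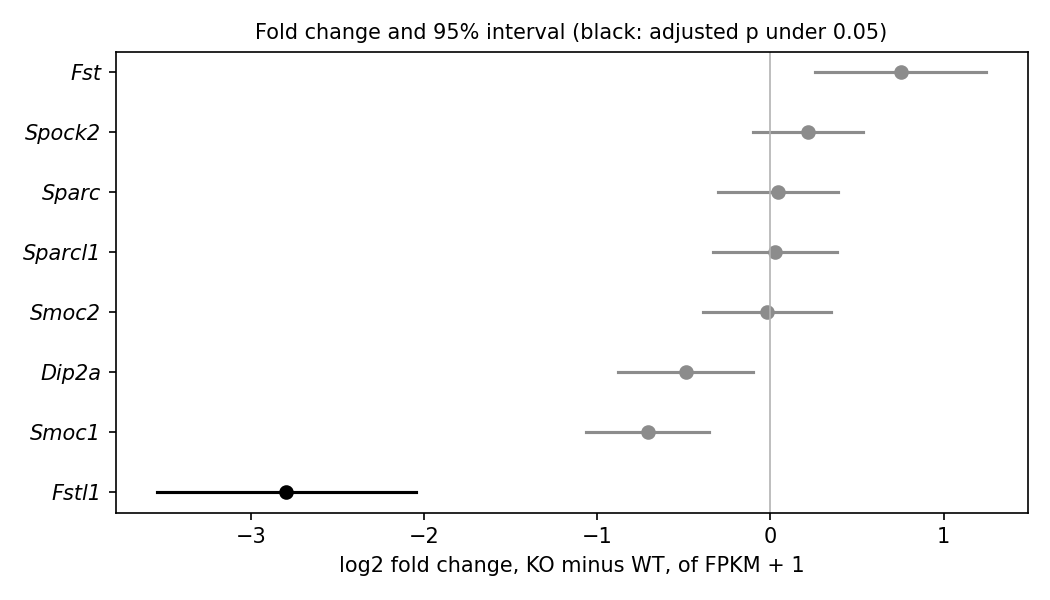
Log2 fold change of KO against WT on the log2(FPKM + 1) scale for the 8 tested genes, with bars for the 95% interval of the limma fit. Fstl1 (black) is at −2.79 and passed an adjusted p of 0.05. The other 7 (grey) did not, although the intervals of Smoc1, Dip2a and Fst do not include 0.

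Variation between libraries of the same group was described by the deviation of log2(FPKM + 1) from the group mean, compared over the 6 libraries with 8373 other genes at a mean of at least 5 FPKM. The genes most like Fstl1 in this measure were Tmem182 (r = 0.998), Gabbr1 (r = 0.990) and Ext1 (r = 0.989), a heparan sulphate polymerase, and 78 genes reached 0.9. All 3 share with Fstl1 the high value of WT replicate 2. Tmem182 was also lower in KO, at 5.65 to 6.44 against 10.05 to 13.03 FPKM (−0.78 on the log2 scale, limma adjusted p 0.0423). The genes most like Sparc were Ndn (r = 0.998), Slc38a2 (r = 0.994) and Mxra7 (r = 0.994), and 283 genes reached 0.9. For Sparcl1 they were Dnajc9 (r = 0.999), Actb (r = 0.997) and Smim14 (r = 0.994), and 214 genes reached 0.9. The rank correlations (Spearman) of these with Sparcl1 were lower, at 0.943, 0.771 and 0.812. They were 0.943 for each gene named for Fstl1 and 1 for each gene named for Sparc. Actb was lower in KO, at 227.3 to 325.34 against 490.77 to 524.99 FPKM (−0.89, limma adjusted p 0.0337), whereas Sparcl1 itself was not called. Among the members, Smoc2 (r = 0.823) and Dip2a (r = 0.799) had the highest r with Fstl1, and Sparcl1 varied most like Sparc (r = 0.827). Dip2a shared with Fstl1 the high value of WT replicate 2 but not the order in KO. There replicate 2 was the lowest library for Dip2a (6.68 FPKM) and the highest for Fstl1 (13.08 FPKM). The summed levels of the marker lists below also differ between the 6 libraries, and whether tissue composition plays a part here was not tested. The r values only describe the libraries.

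The remaining relatives, a list of SPARC and follistatin domain genes with Dip2b and Dip2c, the relatives of Dip2a that hold no such domain, did not separate the groups. Of the 12 genes listed, 10 were in the table, 7 were tested and 0 passed in limma, with 0 at an unadjusted p under 0.05 and overlap between groups in all 7. Igfbp7, a secreted protein with a follistatin-like module, was the highest, at 128.25 to 190.15 FPKM in WT and 138.8 to 140.24 FPKM in KO. Tmeff1 was at 32.26 to 57.76 FPKM in WT and 23.81 to 43.54 FPKM in KO. Agrn, the heparan sulphate proteoglycan agrin, was at 17.64 to 21.50 FPKM in WT and 20.57 to 23.71 FPKM in KO. Tmeff2 (4.93 to 10.43 FPKM) and Wfikkn1 (0.70 to 1.23 FPKM) were less abundant, and Spock3 (0.25 to 0.70 FPKM), Wfikkn2 (0.23 to 0.72 FPKM) and Spock1 (0 to 0.01 FPKM) were under the filter.

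Among the listed activin, myostatin, BMP and TGF-beta ligands, 0 of 10 tested genes passed in limma. An unadjusted p under 0.05 was reached by 3 (19.2% of all tested genes did, 8.6% lower and 10.6% higher in KO). Bmp6 was at 4.75, 6.17 and 7.76 FPKM in WT and 10.63, 10.06 and 9.68 FPKM in KO, with no overlap (limma, log2 fold change 0.64, adjusted p 0.0969). Bmp4, which FSTL1 has been described to antagonise, was at 0.52, 1.05 and 0.58 FPKM in WT and 1.22, 1.59 and 1.26 FPKM in KO (limma, 0.47, adjusted p 0.181). Tgfb1 went the other way, at 16.86, 25.73 and 30.51 FPKM in WT and 15.58, 16.68 and 15.33 FPKM in KO (limma, −0.55, adjusted p 0.198). Tgfb3 lay at 3.25 to 4.14 FPKM in WT and 2.39 to 3.17 FPKM in KO. Inhba, the activin A subunit, was at 0.05 to 0.18 FPKM and Mstn, myostatin, at 0.03 to 0.61 FPKM, so both were under the filter. Inhbb, the activin B subunit, was tested, at 1.15 to 1.44 FPKM in WT and 0.92 to 1.12 FPKM in KO (limma, −0.19, adjusted p 0.489).

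Of the receptors, 0 of 12 tested passed in limma, and 4 had an unadjusted p under 0.05, all 4 higher in KO with no overlap between groups. Of all tested genes, 10.6% were higher in KO at an unadjusted p under 0.05 and 13.6% were higher without overlap. Tgfbr2 was the most abundant of the 12, at 66.14 to 71.25 FPKM in WT and 91.66 to 100.17 FPKM in KO (limma, log2 fold change 0.45, adjusted p 0.0989). The next most abundant, Acvr2a and Bmpr1a, overlapped between groups, at 11.17 to 19.96 against 17.34 to 28.73 FPKM and at 13.28 to 23.5 against 13.19 to 19.63 FPKM in WT and KO. Acvr2b, an activin receptor, was at 0.76 to 0.97 FPKM in WT and 1.36 to 1.71 FPKM in KO (limma, 0.41, adjusted p 0.165). Cd14 and Tlr4, proposed to mediate signals of FSTL1 in innate immune cells, were at 1.82 to 4.74 against 4.97 to 14.46 FPKM and at 0.84 to 1.52 against 1.56 to 2.40 FPKM in WT and KO. Their adjusted p values in limma were 0.167 and 0.235.

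Early SMAD target genes, which report BMP and TGF-beta signalling, were lower in KO in 7 of 8 cases by sign, with a median log2 fold change of −0.41 beside 0.01 over all tested genes. In limma 0 passed, and 5 had an unadjusted p under 0.05, all lower (8.6% of all tested genes). Id1, an inhibitor of differentiation and a direct BMP target, was at 64.34, 60.35 and 96.53 FPKM in WT and 41.88, 47.18 and 30.78 FPKM in KO (log2 fold change −0.86, limma adjusted p 0.0831). Smad6, an inhibitory SMAD, was at 2.66, 4.52 and 5.33 FPKM in WT and 1.72, 1.73 and 2.09 FPKM in KO (−0.83, limma adjusted p 0.0812). Without WT replicate 1 it was the 1 gene of this group that passed (−1.06, limma adjusted p 0.0325). Id3 was at 28.73, 29.05 and 49.8 FPKM in WT and 22.74, 21.12 and 18.2 FPKM in KO (−0.72, limma adjusted p 0.123). Id2 also lay lower in each KO library, at 25.29 to 36.45 FPKM against 38.72 to 39.21 FPKM (−0.30, limma adjusted p 0.346).

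**Figure D4:**
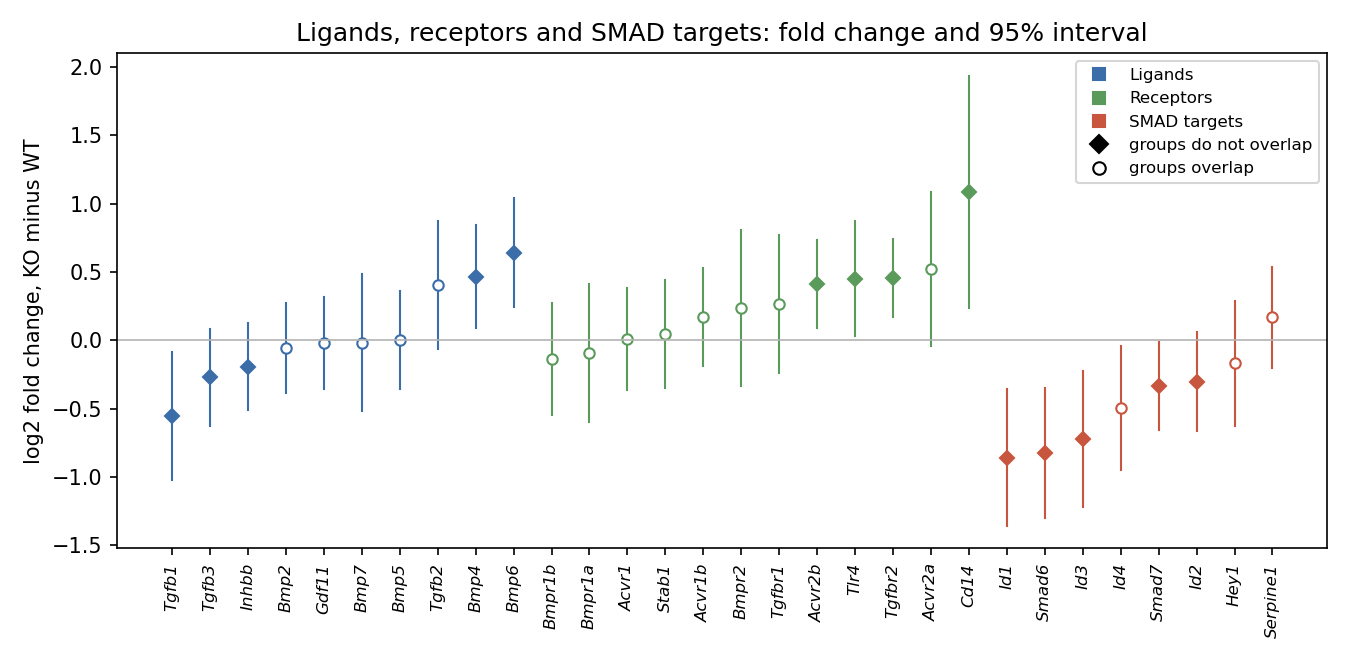
Log2 fold change of KO against WT with its 95% limma interval for tested ligands (blue), receptors (green) and SMAD targets (red); filled diamonds mark genes whose groups do not overlap and open circles those that overlap. None passed an adjusted p of 0.05; Id1 lies at −0.86 and Cd14 at 1.09.

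The collagens that SPARC binds or that are laid down with it did not separate the groups. Of 10 tested, 0 passed in limma, 0 had an unadjusted p under 0.05 and the median log2 fold change was 0.07. Col3a1 was at 473.17 to 706.59 FPKM in WT and 576.06 to 982.65 FPKM in KO, and Col1a1 at 317.6 to 439.65 and 330.13 to 583.73 FPKM. KO replicate 2 was the highest library for both, as it was for Sparc and Sparcl1. Col4a1, a basement membrane collagen, was at 377.2 to 408.76 FPKM in WT and 328.1 to 366.3 FPKM in KO, without overlap (limma, −0.15, adjusted p 0.551).

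The cell types that could supply these transcripts were followed with marker lists, and their part in the differences above was not tested. The brown adipocyte list summed to 22850 to 29820 FPKM in WT and 22850 to 24880 FPKM in KO. Most of this was Fabp4, at 14058.72 to 17388.98 FPKM in WT and 13999.94 to 15846.38 FPKM in KO. Ucp1 was at 4365.84 to 6255.31 FPKM in WT and 1694.98 to 3591.5 FPKM in KO (limma, −1.08, adjusted p 0.0804). By sign 8 of the 12 genes of the brown adipocyte list were lower in KO and 4 higher. In limma 3 passed, all lower (Elovl3, Otop1 and Plin1), beside 1.01% of all tested genes called lower. The fibroblast and stromal list summed to 381.4 to 493.0 FPKM in WT and 462.0 to 715.7 FPKM in KO. Of its genes 2 of 10 passed, both higher, beside 1.21% of all tested genes called higher. These were Thy1 (2.03 to 4.51 against 9.99 to 17.56 FPKM, limma adjusted p 0.0164) and Ly6a (19.79 to 29.76 against 49.14 to 55.91 FPKM, limma adjusted p 0.0332). Of the mural list 1 of 8 passed, lower in KO, beside 1.01% of all tested genes called lower. It was Cspg4 (4.64 to 6.71 against 1.45 to 3.36 FPKM, limma adjusted p 0.0435). The mural list summed to 125.8 to 167.0 FPKM in WT and 108.9 to 124.2 FPKM in KO. No gene of the endothelial (9 tested), skeletal muscle (10), myogenic precursor (2), macrophage (8), erythroid (6) or Schwann cell (6) lists passed in limma. By sign 7 of 8 mural, 10 of 10 skeletal muscle and 2 of 2 precursor genes were lower in KO. So were 5 of 9 endothelial, 4 of 6 erythroid and 5 of 6 Schwann cell genes. In the other direction, 8 of 10 stromal and 8 of 8 macrophage genes were higher. At an unadjusted p under 0.05, reached by 19.2% of all tested genes, there were 5 lower brown adipocyte genes and 1 higher one, 3 stromal genes, all higher, and 3 mural genes, all lower. In the same count there were 2 endothelial, 1 muscle and 1 precursor gene, all lower, 3 macrophage genes, all higher, and 0 in the other 2 lists.

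Summed endothelial markers were at 577.9 to 798.9 FPKM in WT and 600.4 to 656.9 FPKM in KO, and summed macrophage markers at 90.1 to 136.7 and 118.7 to 170.8 FPKM. Summed erythroid markers were at 2801 to 11790 and 2556 to 3298 FPKM, highest in WT replicate 3, and Schwann cell markers at 72.7 to 77.4 and 58.6 to 84.0 FPKM. Skeletal muscle markers summed to 1296 to 1894 FPKM in WT, to 326 FPKM in KO replicate 1 and to 1424 and 1715 FPKM in the other KO libraries. Without KO replicate 1 the log2 fold change was −2.66 for Fstl1 (limma, adjusted p 0.0261) and −0.75 for Smoc1 (limma, adjusted p 0.125). It was −0.51 for Dip2a and 0.66 for Fst, neither of which passed. Whether muscle content plays a part in these differences was not tested. Myogenic precursor markers summed to 4.61 to 6.25 FPKM in WT and 0.44 to 3.89 FPKM in KO. Myf5 itself, the gene that defines the targeted lineage, was at 0.44, 0.43 and 0.33 FPKM in WT and 0.04, 0.17 and 0.13 FPKM in KO, all under the filter, and no marker listed in the table was at 0 in every library.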

How the data were processed

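RNA-seq of 6 libraries (3 WT, 3 KO) was used. The values are FPKM, as deposited by the authors and rounded to 2 decimals, per the file headers. HISAT2 2.0.4, Bowtie2 2.2.5, DESeq2 and build mm10 are named in the submitters' processing notes without their roles; the counting tool, strand handling and filters are not given in the sources used here. FPKM are not counts, so no count model was fitted. Groups and replicate numbers came from sample titles. Values were taken as log2(FPKM + 1), genes averaging 0.5 FPKM or more were kept, and KO was compared with WT in limma 3.58.1 (R 4.3.3; lmFit, eBayes with trend, no covariate), adjusted by Benjamini-Hochberg over all genes tested. Log2 fold changes on this scale understate changes of low genes. Exact permutation tests were two-sided. In simulated data of 13331 genes with 200 changed by 1.5 (log2), the KO against WT fit recovered 180 with their sign and wrongly called 9 others. The changed genes were drawn from those with a mean log2(FPKM + 1) above 1. Every tested member except Fstl1 differed by less than 1.5, so this recovery does not measure the power for them.

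Depth was estimated from the steps of low FPKM values of genes with 1 transcript of 500 to 1300 nt (GENCODE vM21 lengths less 50 nt). For each library the depth that put the largest share of values within 0.2 of a whole read was taken. That share was 75.8% to 80.4% of 317 to 346 values per library. It was maximised by this choice, so it is not a separate check of the depth. Read numbers made from the depth are estimates and cover counting error only. Whole reads were thus recovered for short, low genes only and not used in any test. Gene positions and overlaps are from GENCODE vM21 (GRCm38), promoter windows from RefSeq.

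The members, gene lists and tests were chosen with earlier results of these data known. Named genes were the members, detected relatives, from each other list those past the threshold or the most abundant ones, the 3 genes most like Fstl1, Sparc and Sparcl1, and Xist and Ddx3y; ligands, receptors and SMAD targets were also named for their function or their size of difference after their values were seen. Alternatives were other pseudocounts, filters, scalings and eBayes settings, the replicate block, leaving out each library and, added after seeing the data, leaving out genes on the X and Y chromosomes. Figures were drawn with matplotlib 3.10.9.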

Additional observations from a re-analysis of the deposited data

How the results depend on the processing

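The fall of Fstl1 kept its direction in each of the 17 alternatives (−3.01 to −2.38). Its adjusted p in limma ran between 0.00192 and 0.0606, the highest being that of the fit of 19241 genes with no filter on low values (−2.79), the one setting that ended the call. Leaving out each library in turn gave −3.01 to −2.38. The number of members called was 0 without the filter and 2 (Fstl1 and Smoc1) with a filter at 5 FPKM, median-of-ratios scaling or robust eBayes, and 1 to 2 when each library was left out, 2 being without WT replicate 1. Smoc1 ran from −0.83 to −0.62, Dip2a from −0.58 to −0.32 (without WT replicate 2), Fst from 0.51 to 0.95 and Spock2 from 0.16 to 0.28, each in 1 direction.

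Members near 0 changed sign: Sparc with quantile normalization (−0.016), without WT replicate 1 (−0.042) and without KO replicate 2 (−0.051); Sparcl1 without KO replicate 2 (−0.11); Smoc2 with a common sum (0.006), without WT replicate 2 (0.077) and without KO replicate 1 (0.056). With each library left out in turn Sparc ran from −0.051 to 0.13, Sparcl1 from −0.11 to 0.14 and Smoc2 from −0.13 to 0.077. The cause was not tested. Over all genes 295 were called, against 35 without the filter, 191 with a common sum, and 31 (without WT replicate 3) to 370 (without WT replicate 1) when each library was left out; the others gave 39 (WT replicate 2 left out), 87 (KO replicate 3), 89 (KO replicate 2) and 121 (KO replicate 1). Lower genes made up 45.4% of the calls; the share was 52.4% after median-of-ratios scaling, and dropping KO replicate 1, 2 or 3 or WT replicate 1 moved it to 55.4%, 25.8%, 29.9% and 53.5%. The cause of these shifts was not tested.

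Same-numbered libraries deviated from their group means with correlations of 0.068, 0.043 and 0.043, so a shared number was read as no pairing. With the replicate block 167 genes passed, Fstl1 kept its call (−2.79, limma adjusted p 0.00192) and 1 receptor gene passed, Cd14 (1.09, limma adjusted p 0.0444). Each list of ligands and of SMAD targets had 1 gene called without WT replicate 1 (Tgfb1, −0.78, and Smad6, −1.06) and 0 to 1 over the libraries left out. At the estimated depth, differences of genes such as Fstl3 rest on few reads.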
